A study of Mus musculus with 10 samples.

Results

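Expressed long noncoding RNA genes were described here in mouse embryonic stem cells that lack RAD23B, a subunit of the XPC DNA repair complex, and in the same mutant cells depleted of XPC. They are the 293 genes, of 36586 in the deposited expression tables, that the tables class as lincRNA and list above 1 RPKM (reads per kilobase of transcript, scaled to the mapped reads of the library) in the wild-type library. A value of exactly 1 was read as 0, since the tables write 1 where a value would be 0, and 6 imprinted names (H19, Meg3, Rian, Mirg, Airn and Kcnq1ot1) were set aside, none of which was listed as lincRNA above the limit. The members were chosen by their wild-type RPKM, so that level is a description, and every ratio to the wild-type library inherits the choice. RNA was sequenced from 4 cultures of JM8.N4, a mouse embryonic stem cell line: Rad23b-/- cells, Rad23b-/- cells with Xpc knocked down by a first shRNA (knockdown 1) or by a second, independent shRNA (knockdown 2), and wild-type cells, with 1 library each. The knockdown cells thus carry the Rad23b deletion too. RAD23B-bound DNA was mapped by ChIP-seq in Xpc-/- embryonic stem cells (1 RAD23B and 1 IgG library) and in wild-type cells of another line, D3 (2 RAD23B and 2 IgG libraries), with guinea pig antibodies to RAD23B and guinea pig IgG as control.

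Long noncoding RNAs are transcribed by RNA polymerase II and often capped, spliced and polyadenylated like messenger RNAs, but are not known to be translated into protein. Some stay in the nucleus and act on chromatin or on the genes beside them, some act as scaffolds or bind microRNAs in the cytoplasm, and others only host small nucleolar RNAs (snoRNAs) or microRNAs in their introns. Embryonic stem cells express a set of such RNAs that are tied to the pluripotent state, among them the Platr genes (pluripotency-associated transcripts). RAD23B forms, with XPC and centrin 2, the complex that recognises DNA damage in nucleotide excision repair, and the complex is also known as a coactivator of OCT4 and SOX2 in stem cells.

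Of the 293 genes, 93 had coordinates of their own in the tables, and 200 carried coordinates that were identical to those of other genes, at 199 loci. A protein-coding gene stood on the coordinates of 169 of these 200, and up to 121 genes shared 1 set of coordinates. None of the 200 had the same RPKM as another gene on its coordinates, but the shared spans (median locus of all members 27.3 kb, of the 93 with their own coordinates 7.3 kb) do not show where the RNA itself begins or ends. The libraries were polyadenylated RNA with no stated strand, so reads from an overlapping gene on the other strand cannot be told apart from those of the lncRNA. For these reasons the 93 genes on their own coordinates lead the account. Loci and regions are given in mm9, the build in the submitters' processing notes. Of 179 members matched to a RefSeq gene, RefSeq lists 154 as lncRNA, 17 as protein-coding, 5 as transcribed pseudogene, 2 as pseudogene and 1 as miscellaneous RNA, so the tables' class is not the present annotation for all of them.

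Rad23b, the deleted gene, had 43.9 RPKM in the Rad23b-null library, 35.8 in knockdown 1 and 52.5 in knockdown 2, against 229 in wild type. Xpc had 8.34 RPKM in the Rad23b-null library, 0.915 in knockdown 1 and 0.895 in knockdown 2, against 8.73 in wild type. The 9 pluripotency markers summed to 4370, 6133 and 5107 RPKM in Rad23b-null, knockdown 1 and knockdown 2 cells, against 6051 in wild type, a sum carried by Dppa5a, Pou5f1 and Tdgf1. Nanog, a core pluripotency factor, had 197, 243 and 209 RPKM in the mutants in that order, against 512 in wild type. Esrrb had 51.5, 77.0 and 60.2 RPKM, against 161.5 in wild type, and Klf4 had 20.1, 30.1 and 29.2 RPKM, against 78.7 in wild type. These 3 factors were thus at less than 0.5 times the wild-type level in each mutant. Pou5f1, Sox2 and Utf1 were also below wild type in each mutant. Zfp42 had 47.0, 42.4 and 42.3 RPKM, against 44.6 in wild type. Tdgf1 was above wild type in each mutant, with 1151, 1593 and 1304 RPKM, against 1087. Dppa5a had 1400, 2296 and 1669 RPKM, against 2040 in wild type. The 6 primitive endoderm markers summed to 8.38, 7.52 and 7.63 RPKM, against 5.84 in wild type, the 5 trophectoderm markers to 53.2, 43.7 and 25.5 RPKM, against 40.3 in wild type, and the 3 neural markers found to 9.07, 6.89 and 9.71 RPKM, against 10.9 in wild type. Within these lists Hand1 had 3.31, 3.48 and 1.70 RPKM, against 0.329 in wild type, and Neurog1 had 0.382, 0.799 and 0.603 RPKM, against 4.24 in wild type. Other genes of the same lists differed in other ways. Krt8 had 23.5, 18.8 and 10.8 RPKM, against 21.4 in wild type, and Pax6 had 4.20, 3.66 and 5.72 RPKM, against 2.78 in wild type. The part that these marker genes have in the values below was not tested. The 7 fibroblast markers, which would mark feeder cells, summed to 2.38, 1.74 and 1.74 RPKM in these mutants and to 1.65 RPKM in wild type, and 6 of the 7 were under 1 RPKM in every library. With 1 library per genotype there is no replicate spread for any RNA value, no test was made, and a difference compares these libraries and cannot be told apart from a difference between cultures or clones. In bulk RNA, fewer cells of a type and less RNA per cell cannot be told apart either.

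The sequences at the starts of 6 members are shown because these genes carry the binding or expression values described further on and have coordinates of their own: Halr1, the member with the highest ratio to wild type in all 3 mutants, Gm5091, a member that was lower in all 3, Lncenc1, 1110002J07Rik and Platr7, which had RAD23B regions of high fold near a start, and Tug1. Each is the RefSeq window of 300 bases, 250 before the annotated start and 50 after it, on build GRCm38.p6, written 5′ to 3′ along the gene. Capitals mark matches to CCAAT, a box bound by NF-Y, on either strand.
Halr1, chr6:52102699-52102998, plus strand: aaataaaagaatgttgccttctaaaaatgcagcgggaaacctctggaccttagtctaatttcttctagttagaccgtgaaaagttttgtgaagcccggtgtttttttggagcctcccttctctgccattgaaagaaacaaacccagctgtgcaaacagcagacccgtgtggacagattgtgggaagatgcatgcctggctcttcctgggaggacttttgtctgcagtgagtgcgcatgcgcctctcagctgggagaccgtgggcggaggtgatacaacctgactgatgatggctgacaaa
Gm5091, chr17:15240734-15241033, minus strand: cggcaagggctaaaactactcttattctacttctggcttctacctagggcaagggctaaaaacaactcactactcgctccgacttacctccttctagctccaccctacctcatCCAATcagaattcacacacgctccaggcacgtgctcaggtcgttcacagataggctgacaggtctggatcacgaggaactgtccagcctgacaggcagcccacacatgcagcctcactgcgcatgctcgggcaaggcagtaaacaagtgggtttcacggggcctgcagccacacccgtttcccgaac
Lncenc1, chr13:97434720-97435019, plus strand: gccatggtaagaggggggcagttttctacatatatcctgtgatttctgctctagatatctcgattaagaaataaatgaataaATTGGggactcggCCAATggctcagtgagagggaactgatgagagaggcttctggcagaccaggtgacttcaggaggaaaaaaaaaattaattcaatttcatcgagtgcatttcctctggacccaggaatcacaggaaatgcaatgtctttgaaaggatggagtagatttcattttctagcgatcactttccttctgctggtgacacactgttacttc
1110002J07Rik, chr10:66920335-66920634, minus strand: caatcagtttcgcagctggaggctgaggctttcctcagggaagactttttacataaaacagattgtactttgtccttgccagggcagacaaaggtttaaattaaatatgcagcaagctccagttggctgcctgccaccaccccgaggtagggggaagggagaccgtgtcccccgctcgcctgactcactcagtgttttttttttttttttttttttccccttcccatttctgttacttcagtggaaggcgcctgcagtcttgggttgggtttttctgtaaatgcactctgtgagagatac
Platr7, chr10:84553289-84553588, minus strand: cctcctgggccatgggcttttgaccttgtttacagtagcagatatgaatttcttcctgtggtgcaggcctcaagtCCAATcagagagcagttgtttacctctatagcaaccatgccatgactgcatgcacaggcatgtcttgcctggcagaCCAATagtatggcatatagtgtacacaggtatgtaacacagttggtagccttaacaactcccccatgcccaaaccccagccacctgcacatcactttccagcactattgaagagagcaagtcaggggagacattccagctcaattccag
Tug1, chr11:3648765-3649064, minus strand: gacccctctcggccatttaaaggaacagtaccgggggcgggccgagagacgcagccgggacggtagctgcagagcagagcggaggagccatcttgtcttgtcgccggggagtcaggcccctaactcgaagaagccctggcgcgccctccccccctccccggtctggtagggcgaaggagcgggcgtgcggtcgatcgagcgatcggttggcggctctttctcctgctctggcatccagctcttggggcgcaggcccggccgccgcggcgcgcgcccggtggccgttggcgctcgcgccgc

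These windows differed in CpG dinucleotides, which numbered 37 in the Tug1 window, 12 in that of Gm5091, 8 in that of Halr1, 6 in that of 1110002J07Rik, 4 in that of Lncenc1 and 0 in that of Platr7. RefSeq windows were found for 137 members, 164 windows in all, with a median of 14 CpG each, against 7 over the 32851 windows of the whole table. CCAAT or its reverse complement was in 34.1% of the member windows and in 37.4% of all windows. The TATA box TATAAA was in 7.32% of the member windows and in 13.6% of all windows, and the octamer ATGCAAAT, the element bound by OCT factors, in 3.05% of the member windows and in 1.74% of all windows. In the 56 windows of the 50 members on their own coordinates CCAAT was in 44.6% and TATAAA in 10.7%, and ATGCAAAT was in 0 of 56, so that for CCAAT and the octamer these members stood on the other side of all windows than the members as a whole. None of the 6 printed windows held TATAAA or ATGCAAAT on either strand. A match to these letters is a description of the window and not a binding site.

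Levels of the members were low and covered a wide range. In wild-type cells the 293 genes had a median of 3.142 RPKM, against 14.85 RPKM for protein-coding genes above the same limit, and the quartiles were 1.497 and 6.961 RPKM. Only 52 reached 10 RPKM and 3 reached 100 RPKM. The members were 14.6% of the 2004 lincRNA genes in the tables. Of the others, 842 were listed at 0 and 869 lay between 0 and 1 RPKM. Just inside the limit stood 9830144P21Rik at 1.00, 2810425M01Rik at 1.02 and Gm17393 at 1.02 RPKM in wild type, and just outside it Gm17362 at 0.990, BC037032 at 0.992 and BB218582 at 0.995 RPKM.

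The most abundant lncRNAs on their own coordinates were Platr14 and Lncenc1. Platr14 (4930500J02Rik, on mm9 chr2:104399319-104411586) had 77.3 RPKM in the Rad23b-null library, 105 in knockdown 1 and 73.8 in knockdown 2, against 101.6 in wild type. Lncenc1 (Gm11019, chr13:98204924-98266960), a lncRNA described in naive stem cells, where it is linked to glycolysis genes, had 92.9, 114 and 99.97 RPKM in the mutants in the same order, against 88.8 in wild type. Neither reached a 2-fold difference in any mutant, and for Platr14 knockdown 1 alone was above wild type. The third, 1810058I24Rik, which RefSeq now lists as protein-coding, had 51.6, 61.3 and 52.3 RPKM, against 57.2 in wild type. Of the 10 members highest in wild type the other 7 had shared coordinates. Gm13166, the highest, was listed at 55.4 RPKM in the Rad23b-null library, 52.0 in knockdown 1 and 71.4 in knockdown 2, against 158 in wild type, on a span of 745455 bases that 30 genes share. 2410006H16Rik, whose span holds Snord49b, Snord49a and Snord65, had 133, 95.6 and 119 RPKM, against 105 in wild type, so the 3 mutants fell on both sides of it. Snhg5, 2310031A07Rik and Gm16728 stayed under 2-fold in every mutant, and Gm17499 and Gm17494 passed 2-fold in Rad23b-null cells alone, with 32.9 RPKM for Gm17499 against 71.0 in wild type, and 24.4 RPKM for Gm17494 against 51.3 in wild type.

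Most members differed little between the mutants and wild type. A member was called higher or lower where the ratio of RPKM + 1 was at least 2-fold, among genes at 1 RPKM or more in either library. In Rad23b-null cells 9 of 293 members were higher and 11 lower than in wild type. Over all 15040 genes past the filter, 4.74% were higher and 4.61% lower, and over the genes above 1 RPKM in wild type, chosen as the members were, 2.18% were higher and 4.97% lower. The members' own shares were 3.07% higher and 3.75% lower. In knockdown 1, 16 of 291 members were higher and 6 lower, against 3.95% and 3.4% of all genes and 1.96% and 3.61% of genes above 1 RPKM. In knockdown 2, 9 of 292 were higher and 7 lower, against 3.93% and 3.6% of all genes and 1.96% and 3.83% of genes above 1 RPKM. The members passed the filter through their wild-type level, so these shares are descriptions, and the 3 ratios share the wild-type library.

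The median log2 ratio of the members was -0.08 in the Rad23b-null library, -0.02 in knockdown 1 and -0.08 in knockdown 2. Over all genes it was -0.16, -0.14 and -0.14, so the bulk of genes was listed lower in each mutant than in wild type. Over genes above 1 RPKM in wild type, chosen as the members were, it was -0.20, -0.17 and -0.17. Centred on the median of all genes, which moves every gene the same way, 16 members were higher and 7 lower in the Rad23b-null library, 22 higher and 4 lower in knockdown 1, and 14 higher and 3 lower in knockdown 2. The split of the calls thus turned in the Rad23b-null library, while in both knockdowns higher calls outnumbered lower ones without centring too. The centred shares of the members were 5.46% higher and 2.39% lower in the Rad23b-null library, against 6.2% and 3.07% of all genes and 3.29% and 3.31% of genes above 1 RPKM. In knockdown 1 they were 7.56% and 1.37%, against 5.06% and 2.5% of all genes and 2.78% and 2.65% of genes above 1 RPKM. In knockdown 2 they were 4.79% and 1.03%, against 5.12% and 2.66% of all genes and 2.86% and 2.83% of genes above 1 RPKM. Among the 93 members on their own coordinates, 6 were higher and 5 lower in the Rad23b-null library, 10 higher and 4 lower in knockdown 1, and 7 higher and 4 lower in knockdown 2, without centring. Of those genes above 1 RPKM in wild type that have their own coordinates, 2.26% were higher and 4.51% lower in Rad23b-null cells, 1.98% and 3.2% in knockdown 1, and 1.96% and 3.35% in knockdown 2.

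**Figure D1:**
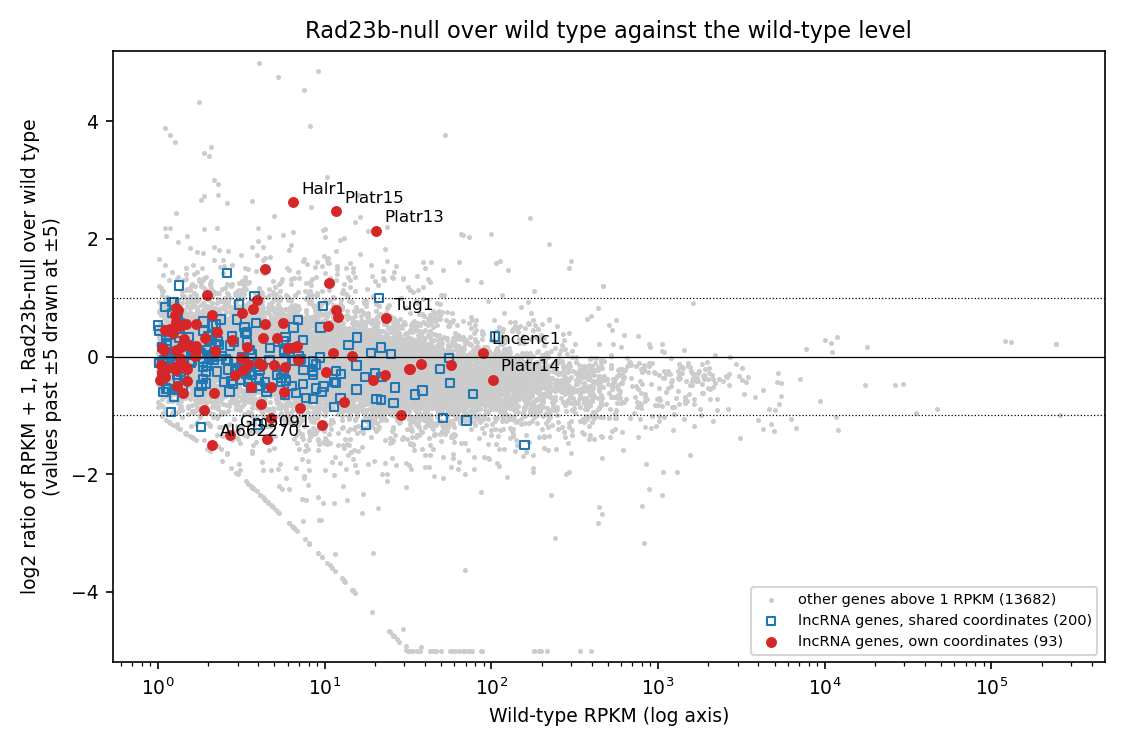
Each gene's log2 ratio of RPKM + 1, Rad23b-null over wild type (vertical axis), against its wild-type RPKM (horizontal log axis), with the 93 lncRNA genes on their own coordinates as filled circles, the 200 on shared coordinates as open squares and other genes above 1 RPKM in grey. The dotted lines mark 2-fold. Halr1, Platr15 and Platr13 stand above the other lncRNA genes at 2.62, 2.47 and 2.14, and most members lie between the dotted lines.

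Of the lncRNA genes, 8 were at least 2-fold higher in all 3 mutants (2.75% of the 291 past the filter in each), 6 of them on their own coordinates. This held for 1.77% of all genes and for 0.968% of genes above 1 RPKM in wild type, and the 3 ratios share the wild-type library. Halr1 (Gm15055, chr6:52052947-52062531, plus strand), a lncRNA on the list of developmental and HOX-linked genes, had 44.9 RPKM in the Rad23b-null library, 47.2 in knockdown 1 and 57.6 in knockdown 2, against 6.45 in wild type. All 3 mutants were thus several-fold above wild type, with log2 ratios of 2.62, 2.73 and 2.997. The authors' deposited tables give p-values of 0.006, 0.002 and 0.001 for Halr1, with no adjustment stated. Platr15 (Gm14136, chr2:150530271-150532612) had 69.5, 74.9 and 79.8 RPKM in Rad23b-null, knockdown 1 and knockdown 2 cells, against 11.7 in wild type. Platr13 (Gm12139, chr11:41032338-41034598) had 92.9, 103 and 110.5 RPKM, against 20.3 in wild type. Both stood apart from wild type in every mutant, and their log2 ratios lay between 2.14 and 2.69.

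The other 3 on their own coordinates had smaller ratios. Gm17496 (chr16:95237976-95288624) had 14.1 RPKM in the Rad23b-null library, 16.5 in knockdown 1 and 12.98 in knockdown 2, against 4.40 in wild type. Gm17392 (chr17:55696463-55702805) had 26.7, 31.5 and 25.4 RPKM, against 10.7 in wild type. 4930444M15Rik (chr14:76914364-76920662) had 5.14, 6.28 and 5.30 RPKM, against 1.98 in wild type. In each of these 3 genes knockdown 1 was the highest library and wild type the lowest. The remaining members, A930024E05Rik and Gm16096, each stand on coordinates that 3 genes share. They had 4.39 and 8.60 RPKM in Rad23b-null cells, against 1.33 and 2.59 RPKM in wild type. The authors' deposited p-values in Rad23b-null, knockdown 1 and knockdown 2 cells were 0.62, 0.483 and 0.546 for A930024E05Rik. For Gm16096 they were 0.369, 0.257 and 0.419.

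Lower in all 3 mutants were 4 lncRNA genes (1.37%), against 1.94% of all genes and 2.01% of genes above 1 RPKM in wild type. Of the 4, 3 had their own coordinates, and all 3 were low in wild type. AI662270 (chr11:83037077-83040106) had 0.0993 RPKM in the Rad23b-null library, 0.0514 in knockdown 1 and 0.466 in knockdown 2, against 2.10 in wild type. Gm11635 (chr11:101471927-101477270) had 1.09, 0.0660 and 0.897 RPKM, against 4.54 in wild type. Gm5091 (chr17:15368548-15377747) had 0.474, 0.330 and 0.534 RPKM, against 2.72 in wild type. For all 3 genes knockdown 1 was the lowest library. The log2 ratios, which the added 1 RPKM holds down at such levels, lay between -1.06 and -2.35. The authors' deposited tables give Gm11635 a p-value of 0.351 in Rad23b-null cells, where Gm5091 has 0.013 and AI662270 has 0.002. In knockdown 1 the values are 0.004, 0.002 and 0.011 in that order of genes, and in knockdown 2 0.332, 0.011 and 0.248. The remaining gene was Gm13166 on its coordinates shared by 30 genes, for which the authors' deposited tables give p-values of 0.947, 0.931 and 0.946 in the mutants.

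**Figure D2:**
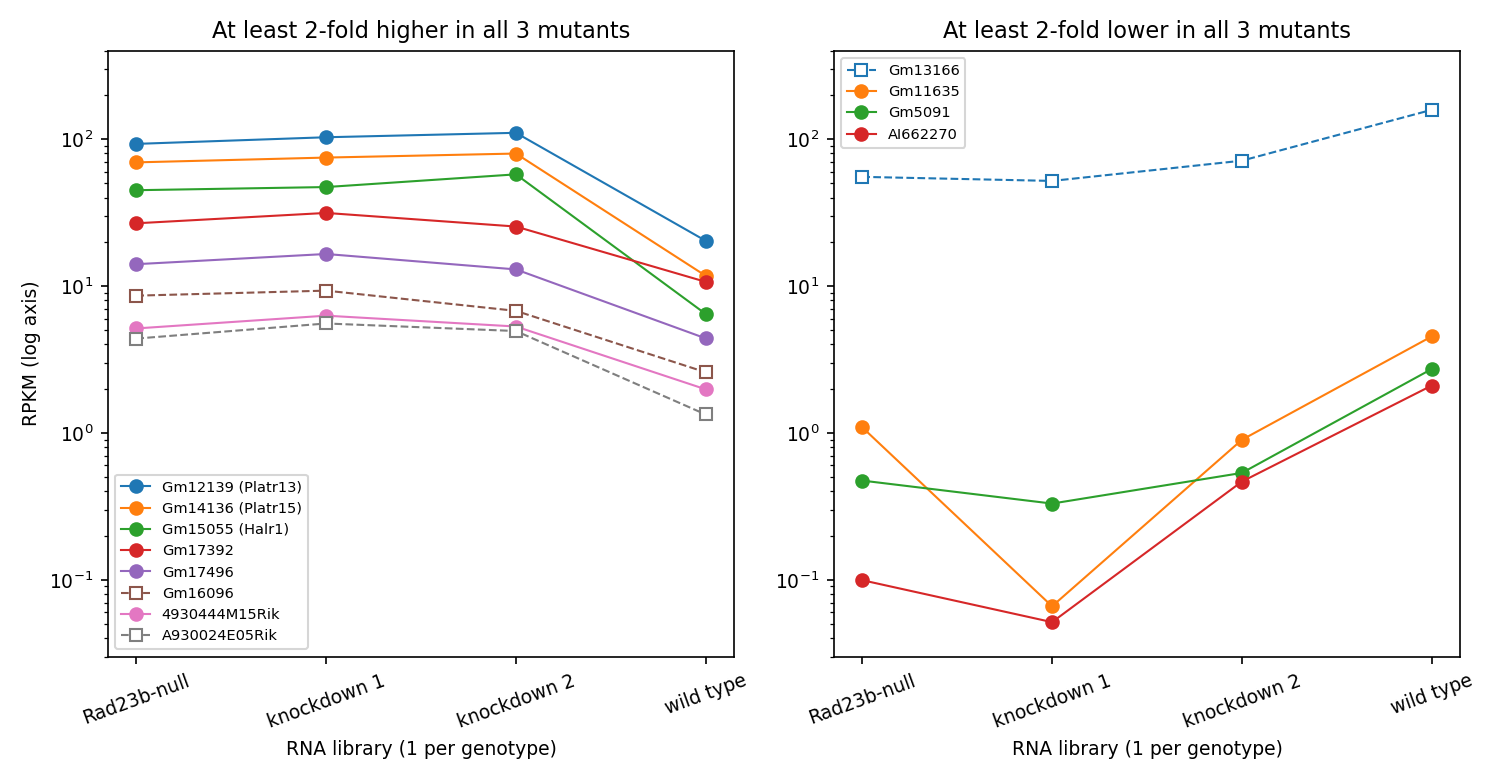
RPKM (log axis) in the 4 RNA libraries, mutants left and wild type right, of the 8 lncRNA genes at least 2-fold higher in all 3 mutants (left panel) and the 4 at least 2-fold lower in all 3 (right panel). Filled circles are genes on their own coordinates and open squares genes on shared coordinates; the 3 mutant libraries of a higher gene lie close together, while Gm11635 spans 0.0660 to 1.09 RPKM among the mutants.

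Beyond these, a member was called in at least 1 mutant in 28 genes, 16 higher and 12 lower, the 12 above included, and no member was called higher in 1 mutant and lower in another. These were 5.46% of members higher and 4.1% lower, against 7.17% and 6.13% of all genes and 3.38% and 6.78% of genes above 1 RPKM in wild type. A030009H04Rik (RefSeq Rnf227) had 1.79, 1.69 and 1.90 RPKM in Rad23b-null, knockdown 1 and knockdown 2 cells, against 4.76 in wild type, and passed the limit in the first 2. Gm807 had 3.42, 5.09 and 2.98 RPKM, against 7.10 in wild type. Both were below wild type in every mutant. Gm13174 had 3.02, 3.65 and 4.11 RPKM, against 1.31 in wild type, with log2 ratios of 0.80, 1.03 and 1.16, and was called in both knockdowns. Gm17699 had 3.08, 3.58 and 2.73 RPKM, against 1.29 in wild type, with log2 ratios of 0.83, 1.02 and 0.72, and was called in knockdown 1 alone.

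Of the members, 14 carry Platr names, a group that was put together after its values had been seen. Their log2 ratios in Rad23b-null cells lay between -0.78 and 2.47, with 3 at least 2-fold higher, Platr13, Platr15 and Platr21, and none 2-fold lower, against the 2.18% and 4.97% of genes above 1 RPKM given above. A group put together in this way shows nothing beyond its own values. Platr21 (C330013F16Rik) stands on coordinates that 3 genes share. It had 8.78 RPKM in the Rad23b-null library, 9.98 in knockdown 1 and 5.11 in knockdown 2, against 3.80 in wild type. The authors' deposited p-values for Platr21 were 0.661, 0.558 and 0.872 in the same order of mutants. Platr4 (C430002E04Rik) had 20.9 RPKM in the Rad23b-null library, 28.0 in knockdown 1 and 23.5 in knockdown 2, against 11.7 in wild type. Platr20 had 8.60, 5.72 and 5.88 RPKM, against 3.92 in wild type. Platr17 (BC033916), which RefSeq lists as protein-coding, had 19.6, 26.5 and 21.4 RPKM, against 12.0 in wild type. For Platr4, Platr20 and Platr17 each mutant was above wild type. By the ratio of RPKM + 1, only knockdown 1 passed 2-fold for Platr4 and Platr17. The added 1 RPKM kept Platr4 in knockdown 2 and Platr20 in Rad23b-null cells under that limit. Platr3 (Gm14074) lay below wild type in each mutant, with 3.42, 2.70 and 3.28 RPKM, against 5.69. Platr25 (Gm5665) did too, with 7.18, 6.08 and 8.03 RPKM, against 13.01. Platr27 was near wild type in each library, with 11.8, 11.2 and 11.4 RPKM, against 11.3.

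The lists of characterised lncRNAs held 17 members. Of 10 members described in stem cells or the p53 response, none was called in Rad23b-null cells or in knockdown 2. Only Platr4 was called in knockdown 1. The calls use RPKM + 1, and the added 1 RPKM kept Platr20 in Rad23b-null cells and Platr4 in knockdown 2 under 2-fold. Tug1 (chr11:3539796-3548815), a widely expressed and conserved lncRNA induced by p53, had 36.9 RPKM in the Rad23b-null library, 36.7 in knockdown 1 and 35.0 in knockdown 2, against 23.2 in wild type. The 3 mutants lay close together and all above wild type, with log2 ratios of 0.65, 0.68 and 0.60. Oip5os1 (1700020I14Rik, known as Cyrano), whose transcript directs the decay of the microRNA miR-7, had 27.6, 27.3 and 26.6 RPKM, against 32.2 in wild type. Tunar, a lncRNA of pluripotency and neural differentiation, had 0.630, 0.614 and 0.615 RPKM, against 1.29 in wild type, a difference that the added 1 RPKM keeps under 2-fold. Pvt1, beside Myc and a host of microRNAs, had 3.71, 3.88 and 3.04 RPKM, against 2.22 in wild type, on shared coordinates. Gm13110 had 1.87, 1.62 and 2.13 RPKM, against 1.69 in wild type.

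Of the nuclear lncRNAs, Malat1, a component of nuclear speckles, had 19.7 RPKM in the Rad23b-null library, 19.1 in knockdown 1 and 19.02 in knockdown 2, against 18.9 in wild type. Malat1 stands on coordinates that 2 genes share. Firre (6720401G13Rik), an X-linked lncRNA that organises chromatin contacts, had 6.69, 5.08 and 6.76 RPKM, against 5.19 in wild type. No X-inactivation lncRNA on the list was a member. Xist and B230206F22Rik are classed as non-coding and Tsix as antisense, and Enox, classed as lincRNA, had 0.0237 RPKM in wild type. Xist, Tsix and B230206F22Rik had 0.0470, 0.0302 and 0.734 RPKM in wild type. Neat1, which the tables class as non-coding and not as lincRNA and which is therefore no member, had 25.9, 42.1 and 39.0 RPKM in the mutants, against 7.54 in wild type. Of the developmental and HOX-linked list only Halr1 was a member, of 10 genes found in the tables.

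Among the snoRNA hosts, 4 of the 8 listed genes found in the tables were members. Snhg20 (2810008D09Rik, chr11:116938103-116940269) had 3.74 RPKM in the Rad23b-null library, 5.05 in knockdown 1 and 10.6 in knockdown 2, against 9.67 in wild type. Knockdown 2 was thus level with wild type, while Rad23b-null cells were at log2 -1.17 and knockdown 1 at -0.78. For Snhg20 the authors' deposited tables, which compare each mutant with wild type, give p-values of 0.662, 0.74 and 0.957, ordered as the RPKM values. Those tables hold no p-value for one mutant over another. Snhg5 had 49.8, 70.4 and 52.7 RPKM, against 77.7 in wild type, and Snhg4 had 10.2, 9.12 and 10.3 RPKM, against 15.5 in wild type. Snhg18 had 1.39, 1.62 and 1.46 RPKM, against 1.55 in wild type. Snhg5, Snhg4 and Snhg18 stand on shared coordinates. The best known snoRNA host, Gas5, is classed as non-coding and not as lincRNA, on coordinates that 2 genes share. It had 658, 573 and 1202 RPKM in the mutants, against 735 in wild type, so knockdown 2 was its highest library as it was for Snhg20. The other listed hosts that are no members differed among themselves. Snhg11 had 3.86, 2.25 and 4.29 RPKM, against 2.36 in wild type. Snhg9 had 1.90, 1.93 and 0 RPKM, against 1.21. 1500012F01Rik had 72.6, 83.8 and 151 RPKM, against 220 in wild type. snoRNA or microRNA genes lay in the spans of 15 members, each of them on shared coordinates, in which small RNA genes have rows of their own.

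Of the microRNA genes in these spans the conserved Mir9-3 is shown, since its host AI854517 (Mir9-3hg) is near the limit. AI854517 had 2.85 RPKM in the Rad23b-null library, 2.10 in knockdown 1 and 1.81 in knockdown 2, against 1.30 in wild type. The ratio of RPKM + 1, which the added 1 RPKM holds down at such levels, was under 2-fold in each. The mature arms of Mir9-3 in RefSeq (GRCm38.p6, chromosome 7) are given with the seed, bases 2 to 8, in capitals, and small RNA itself was not measured by these polyadenylated libraries.
mmu-miR-9-5p: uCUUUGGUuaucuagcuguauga
mmu-miR-9-3p: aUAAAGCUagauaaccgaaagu

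**Figure D3:**
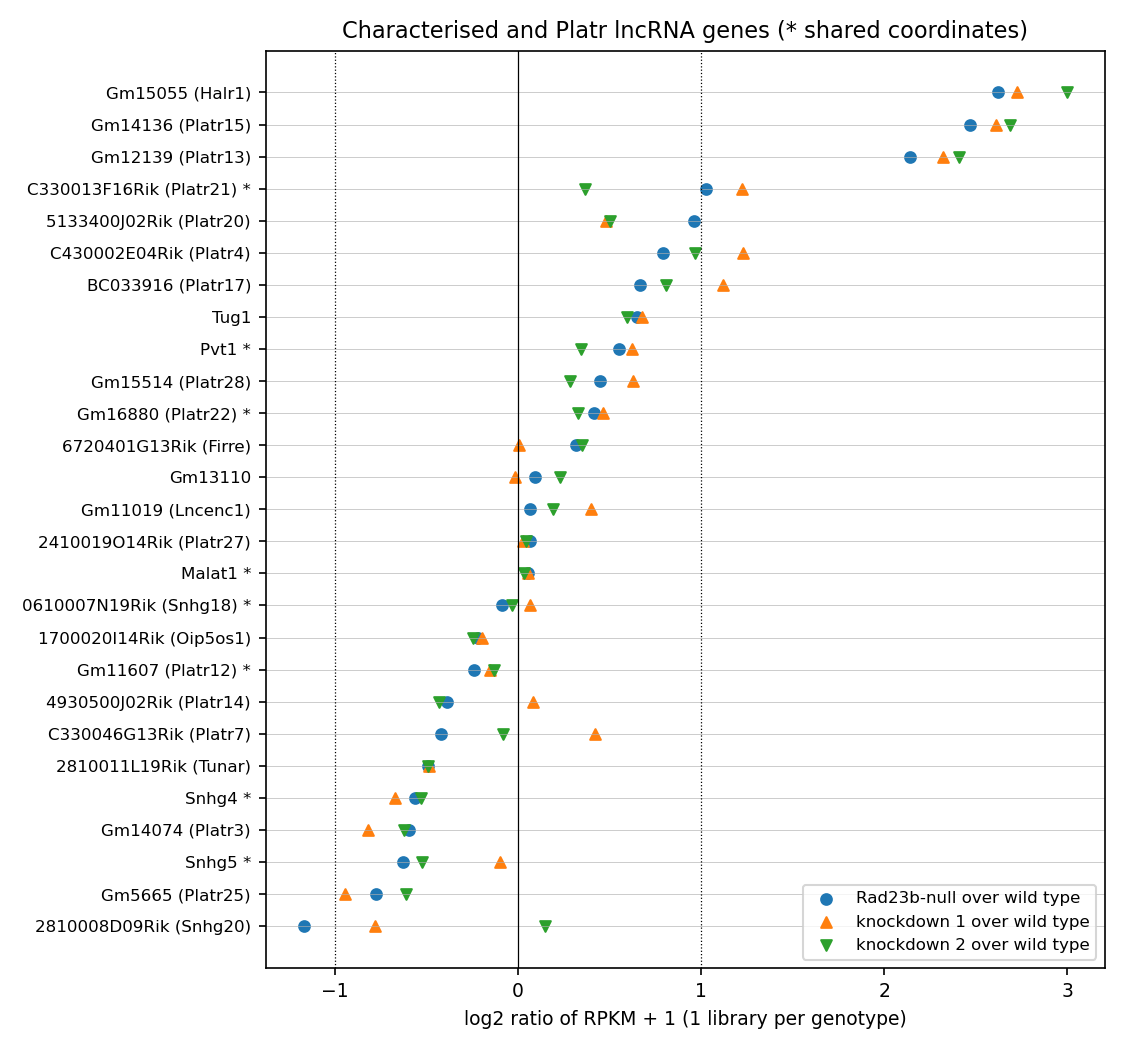
log2 ratios of RPKM + 1 over wild type in Rad23b-null cells (circles), knockdown 1 (upward triangles) and knockdown 2 (downward triangles) for members on the lists of characterised lncRNAs and members with Platr names, ordered by the Rad23b-null ratio. Halr1, Platr15 and Platr13 lie past 2 in every mutant, and Snhg20 runs between -1.17 in Rad23b-null cells and 0.15 in knockdown 2.

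Knockdown of Xpc on top of the Rad23b deletion came with few differences among the members. The tables were scaled separately, so the knockdown values were first multiplied by 1.026 for knockdown 1 and 1.017 for knockdown 2, which brings the wild-type column of each table to the same scale. Knockdown 1 over Rad23b-null gave 0 members 2-fold higher and 0 lower of 271, against 1.58% and 2.04% of all genes and 0.86% and 0.926% of genes above 1 RPKM in wild type. Knockdown 2 over Rad23b-null gave 1 higher, Snhg20 at a log2 ratio of 1.32, and 0 lower of 268, against 1.65% and 1.8% of all genes and 0.89% and 0.92% of genes above 1 RPKM in wild type. Knockdown 2 over knockdown 1 gave 0 higher and 1 lower of 271, against 1.7% and 1.68% of all genes and 0.838% and 0.97% of genes above 1 RPKM in wild type. The single lower gene, Gm16046, stands on coordinates shared by 10 genes, and had 1.40 RPKM in knockdown 2 and 4.56 RPKM in knockdown 1, against 2.68 in Rad23b-null cells. The SD of the members' log2 ratios was 0.26 for knockdown 1 over Rad23b-null, 0.25 for knockdown 2 over Rad23b-null and 0.26 for knockdown 2 over knockdown 1, against 0.56 for Rad23b-null over wild type. Over genes above 1 RPKM in wild type it was 0.47, 0.46 and 0.47, against 0.65. A smaller spread between mutants was thus not particular to the members.

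The protein-coding neighbours of the members were looked at next. Of the 93 members on their own coordinates, 29 had a protein-coding gene on its own coordinates within 5 kb, 14 of them in divergent orientation, 10 on the same strand and 5 convergent or overlapping. In 26 pairs the neighbour had at least 1 RPKM in either library. None of those 26 lncRNAs and 1 of the neighbours was called in Rad23b-null cells. Of genes above 1 RPKM with their own coordinates, 2.26% were higher and 4.51% lower. The 2 genes of a pair differed from wild type in the same direction in 10 of 26 pairs. Above wild type lay 48 of the 93 members on their own coordinates and 3894 of 11687 protein-coding genes above 1 RPKM. No such count was taken for pairs of other genes. Genes on shared coordinates were left out of the pairs.

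RAD23B-bound regions were common at the members. The authors listed 59768 regions in the first and 42364 in the second wild-type replicate, and the 38822 regions of the first that overlap 1 of the second were used, in mm9 coordinates. Such a region lay within 5 kb of the locus of 240 of 293 members (81.9%, exact 95% interval 77 to 86.1), against 57.5% of all genes and 83.5% of all genes above 1 RPKM in wild type. Within 1 kb of the listed start it was 128 members (43.7%, 37.9 to 49.6), against 34.2% of all genes and 63.3% of genes above 1 RPKM. Long shared spans enter both counts. Intervals cover counting error only, and regions come from wild-type D3 cells, not from JM8.N4.

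Among the 93 members on their own coordinates, 65 had a region within 5 kb (69.9%, 59.5 to 79). The lincRNA genes at or below 1 RPKM with their own coordinates had a region at 45.1% (41.9 to 48.4, of 920), and protein-coding genes above 1 RPKM with their own coordinates at 85.3% (84.5 to 86.2, of 7242), and over all genes above 1 RPKM with their own coordinates it was 77%. Within 1 kb of the start the shares were 60.2% for the members (49.5 to 70.2), 30.8% for the lower lincRNA genes, 75.3% for the coding genes and 66.7% for all genes above 1 RPKM. The members' intervals thus lie above those of the lower lincRNA genes and below those of the coding genes for both windows, without a test of the difference. Locus length differs between these groups, with medians of 7.3 kb for the members, 6.77 kb for the lower lincRNA genes and 18 kb for the coding genes. At 1 to 2 RPKM the shares near the start were 61.1% of 36 members (43.5 to 76.9) and 56.3% of 680 coding genes (52.5 to 60.1). At 2 to 5 RPKM they were 57.7% of 26 members (36.9 to 76.6) and 68.2% of 1138 coding genes (65.4 to 70.9), and at 5 to 10 RPKM 54.5% of 11 members (23.4 to 83.3) and 72.3% of 1050 coding genes (69.5 to 75). Above 10 RPKM they were 65% of 20 members (40.8 to 84.6) and 80.8% of 4374 coding genes (79.6 to 81.9).

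**Figure D4:**
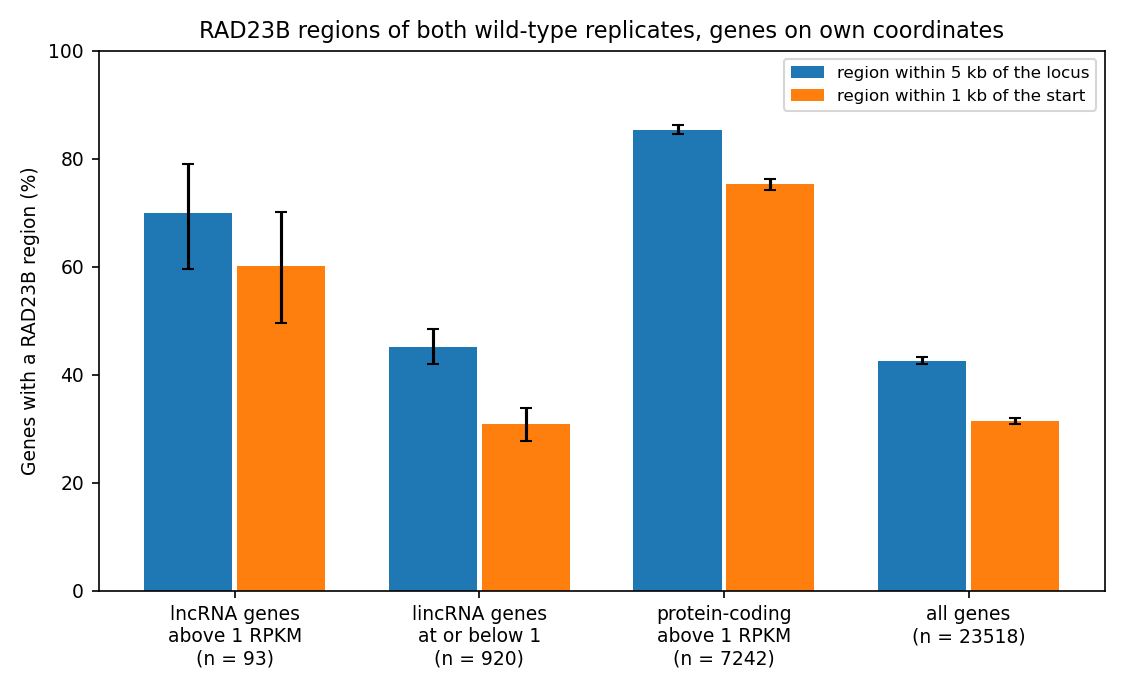
Share of genes on their own coordinates with a RAD23B region listed in both wild-type replicates, within 5 kb of the locus (left bar of each pair) and within 1 kb of the start (right bar), with exact 95% intervals for counting error. The 93 expressed lncRNA genes, at 69.9% and 60.2%, lie between the lincRNA genes at or below 1 RPKM and the protein-coding genes, and all genes on their own coordinates stand at 42.6% and 31.4%.

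Some lncRNAs start beside a protein-coding gene. Of the 93, 18 start within 1 kb of the listed start of a protein-coding gene, and 15 of these (83.3%) had a region within 1 kb of the start. Coding genes on shared coordinates entered with an end of the shared span as their start, so a start inside such a span was missed. Of the 75 that start farther away, 41 (54.7%) had a region there. In all, 55 of the 65 members with a region had at least 1 that was more than 1 kb from any listed coding start, with the same limit. The median of the highest fold over IgG per member, as the authors scaled it in the first replicate, was 2.15, against 2.02 for the protein-coding genes on their own coordinates. Of the members called in Rad23b-null cells, 2 of the 6 higher and 3 of the 5 lower had a region within 5 kb, and so had 60 of the 82 that were not called.

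In the first replicate Halr1 held the region with the highest fold of any member on its own coordinates. The folds of the second replicate stand under a heading that names the libraries of the first, so it is not sure which libraries they compare. At chr6:52056100-52056663, 3.43 kb downstream of its start and inside the locus, 197 RAD23B reads stood against 32 IgG reads in the first replicate, and the authors' fold was 5.73 in the first and 4.78 in the second replicate, where a region of Lncenc1 was higher. Its 5 regions also included 1 at chr6:52054935-52055773, with folds of 4.93 and 3.98, and 1 over the start at chr6:52052647-52053170, with folds of 1.96 and 2.17. The region over the start, whose sequence is printed above, was the weakest of the 5 in the first replicate. That printed sequence has no match to any of the 3 motifs, and a link between motifs and fold was not tested. 4930444M15Rik, the other higher member with a region, had 2, neither at the start, with folds up to 3.68 in the first and 3.74 in the second replicate. Platr13, Platr15, Gm17496 and Gm17392, which were higher in all 3 mutants, had no shared region within 5 kb.

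Among the most abundant lncRNAs, Lncenc1 had 7 regions. The strongest, at chr13:98205685-98206560 and 1.2 kb downstream of the start, had folds of 4.31 and 4.84, and a second region over the start, at chr13:98204785-98205497, had folds of 3.31 and 4.76. Platr14, with a similar level, had 1 region, 13.8 kb downstream of its start, with folds of 1.43 and 2.87. Platr7, at 1.49 RPKM in wild type, had 1 region 1.34 kb upstream, at chr10:84016958-84017892, with folds of 4.77 and 3.86, beside the window above that holds no CpG. 1110002J07Rik had 6 regions, of which that over its start, at chr10:66382660-66383637, had folds of 4.47 and 3.64. Platr7, the lowest of these 4 genes in wild-type RPKM, thus had a higher fold in the first replicate than Lncenc1 or Platr14. Tug1 had 1 region, at chr11:3548757-3549960 over its CpG-rich start and within 1 kb of a listed coding start, with folds of 1.45 and 1.26.

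On shared coordinates, 2310010G23Rik had the highest fold of all members in the first replicate, 5.85, and 7.72 in the second, at chrX:34356913-34357534 over its start, with 195 RAD23B reads against 31 IgG reads in the first replicate. In the second replicate A230072C01Rik, named after its values were seen, was higher, with folds of 4.92 and 8.38. The next members in the first replicate were Gm16786 with folds of 5.29 and 5.25, Platr12 (Gm11607) with 5.25 and 7.503, and Gm11602 with 4.99 and 4.18, both folds being those of the member's strongest region in the first replicate. None of 2310010G23Rik, Gm16786, Platr12 and Gm11602 was called in any mutant. 2310010G23Rik had 2.62 RPKM in the Rad23b-null library, 4.27 in knockdown 1 and 2.63 in knockdown 2, against 4.48 in wild type. Of the lower members on their own coordinates, Gm5091 had 2 regions. The region over its start, at chr17:15377417-15378078, had folds of 1.72 and 1.99, and that away from the start had 1.83 and 2.73. AI662270 and Gm11635 had no region within 5 kb. Firre and Platr20 had none either.

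**Figure D5:**
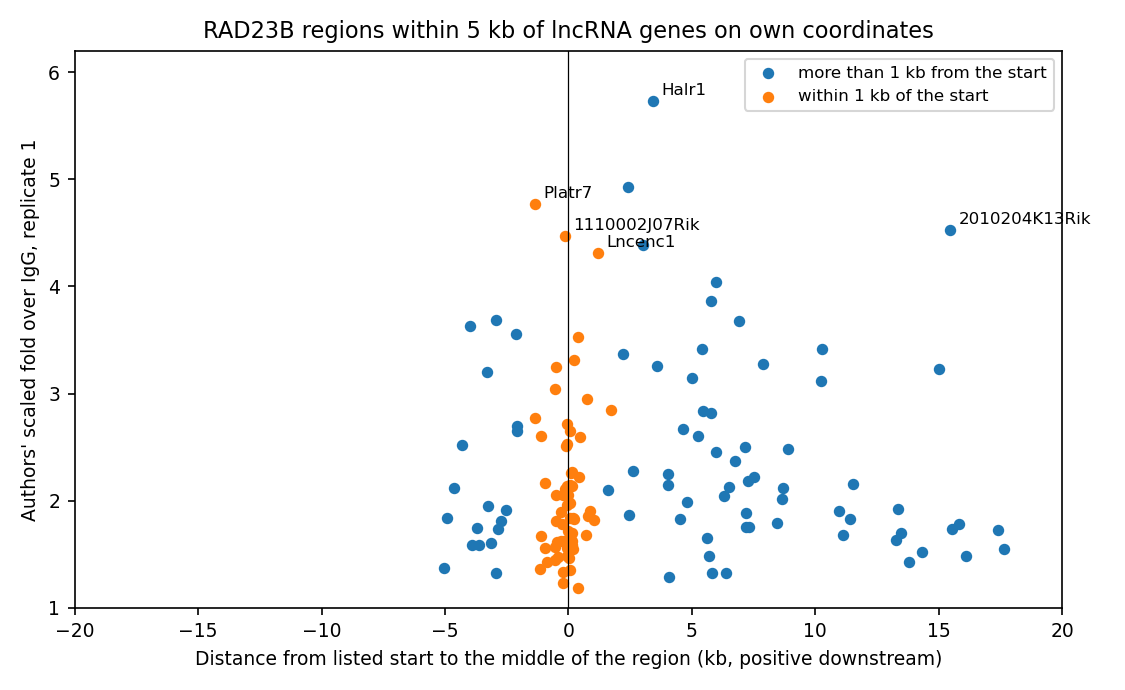
The authors' scaled fold over IgG in the first wild-type replicate (vertical axis) of RAD23B regions listed in both replicates, against the distance of the region's middle to the listed start (kb, horizontal axis), for lncRNA genes on their own coordinates; 144 regions are drawn and 17 farther than 20 kb are not. Regions within 1 kb of the start are in orange, and the 4 highest folds drawn belong to Halr1 (2 regions), Platr7 and 2010204K13Rik.

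In Xpc-/- cells the authors listed 828 regions, of which 477 lie on chromosome 8. The fold in that list follows headings that put IgG over RAD23B, so no strength is read from it. A region of this list lay within 5 kb of 19 members (6.48%, exact 95% interval 3.95 to 9.94), against 3.49% of all genes and 5.66% of genes above 1 RPKM in wild type. Of these members 8 are on chromosome 8, and 5 of the 19 have coordinates of their own (5.38% of such members, against 3.92% of genes above 1 RPKM on their own coordinates). Among the named genes, 1110002J07Rik had such a region, at chr10:66384111-66384386, inside its shared wild-type region upstream of the start. The wild-type and Xpc-/- lists differ in cell line, depth and number of libraries, and a difference between the genotypes cannot be told apart from these.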

How the data were processed

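The 4 RNA libraries were single-end poly-A TruSeq libraries read to 50 bp, per the labels' protocols. TopHat2 2.0.6, Cufflinks 2.0.2, Cuffdiff, Partek and build mm9 are named in the submitters' processing notes, without role or order. The authors deposited RPKM values and p-values to 3 decimals, each mutant in a table with the wild-type library, scaled separately. Printed wild-type values are those of the Rad23b-null table, and each ratio over wild type was taken within a mutant's own table. Depth is not given, but the steps of low RPKM values put the Rad23b-null, knockdown 1 and knockdown 2 libraries at 1.29, 1.23 and 1.26 times the wild-type depth. Of 36658 lines, 72 without a gene name (0.00144% of wild-type RPKM) were left out.

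The authors' region lists, per the file headers, give read counts, maximum reads, RPM and a scaled fold ratio over IgG. The headings of the second replicate's list name the first replicate's libraries, so its counts were not used, and its folds, printed as listed, carry the same doubt. The counts and RPM imply 109.3 and 62.53 M reads for the wild-type replicates and 145.1 M for the Xpc-/- library. Nothing in the labels says that the 2 wild-type ChIP replicates came from separate cultures.

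Ratios used RPKM + 1, a filter of 1 RPKM in either library and a 2-fold limit. Regions of the first replicate overlapping 1 of the second by at least 1 base were counted within 5 kb of a locus or 1 kb of a start. Named genes are members on lists of characterised lncRNAs, the 10 highest in wild type, the 5 highest and 5 lowest ratios per mutant on own coordinates, 3 on each side of the limit, the 5 highest folds and members called in all 3 mutants; others named were chosen after their values were seen. The members and lists were chosen with earlier results of these data known. Functions were tested on simulated data. Tools were Python 3.11.15, pandas 2.3.3, numpy 2.4.6, scipy 1.17.1 and matplotlib 3.10.9. Other current names came from Ensembl identifiers, and promoter and microRNA sequences from RefSeq.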

Additional observations from a re-analysis of the deposited data

Results flagged for a closer look

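Gm16046 differed between the hairpins: its log2 ratio over Rad23b-null cells was 0.63 in knockdown 1 and -0.60 in knockdown 2, past 1.5-fold in opposite directions. The difference was not tested, with 1 library each. Its coordinates are shared by 10 genes.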

How the results depend on the processing

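Of 111 alternative values for 15 results, 57 were within 1.5 times the value reported and 54 moved further. With 1 library per genotype no alternative gives a replicate check of the RNA values, and an RPKM gives no counting error. No paired analysis was possible because the 4 RNA libraries are 1 per group and the IgG libraries that share replicate numbers with the RAD23B libraries have no region list of their own.

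Counts are given as members higher and lower. With a pseudocount of 0.1 they were 20 and 23 in the Rad23b-null library, 27 and 17 in knockdown 1, and 18 and 16 in knockdown 2. With a pseudocount of 0.5, 14 were higher in the Rad23b-null library, 10 lower in knockdown 1 and 12 lower in knockdown 2. Centring on the median of all genes gave 16 and 7 in the Rad23b-null library, and 14 and 3 in knockdown 2. A minimum of 5 RPKM left 5 lower in the Rad23b-null library, 1 in knockdown 1 and 3 in knockdown 2. A 1.5-fold limit gave 32 and 37, 34 and 26, and 34 and 28 in the same order of mutants. Of genes above 1 RPKM in wild type, that limit gave 945 and 2473 of 13975 in the Rad23b-null library. In knockdown 1 it gave 816 and 1836 of 13948, and in knockdown 2 861 and 2040 of 13964. No share over all genes was taken for the smaller pseudocounts or the 5 RPKM minimum, so those counts have no background beside them. Members on their own coordinates numbered 5 lower in the Rad23b-null library, 10 higher in knockdown 1 and 4 lower in knockdown 2. Members that RefSeq lists as lncRNA, a choice made after seeing the data, numbered 4 and 4, 6 and 3, and 3 and 3.

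Between mutants, knockdown 1 over Rad23b-null gave 1 and 1 with either smaller pseudocount, and 4 and 2 at 1.5-fold. Knockdown 2 over Rad23b-null gave 2 lower with a pseudocount of 0.1, 1 lower with 0.5, and 2 and 5 at 1.5-fold. Knockdown 2 over knockdown 1 gave 1 and 2 with 0.1, 2 lower with 0.5, 2 and 5 at 1.5-fold, and 0 lower with the 5 RPKM minimum, on own coordinates or among RefSeq lncRNA genes. Of genes above 1 RPKM in wild type, 402 and 323 of 13608 passed 1.5-fold in knockdown 1 over Rad23b-null. For knockdown 2 over Rad23b-null it was 282 and 296 of 13593, and for knockdown 2 over knockdown 1 321 and 319 of 13607.

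Regions with a fold of at least 2 in both replicates, the second under its doubtful heading, lay within 5 kb of 148 members and at the start of 40. Within 5 kb, 65 members on their own coordinates and 137 RefSeq lncRNA genes had a region, and at the start 56 on their own coordinates. Leaving out 1 RAD23B replicate gave 242 to 261 members within 5 kb and 129 to 145 at the start. Fewer genes account by construction for the lower counts on own coordinates and among RefSeq lncRNA genes; the cause of the other changes was not tested.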
